A study of Mus musculus with 17 samples.

Results

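The genes described here are 52 genes of mitosis and cell division, chosen by name for the work of their proteins at the spindle, the kinetochore, the cleavage furrow and in the mitotic kinase network. They were chosen with earlier results of these data known, so the counts that pass describe this list and are not an independent test of it. All 52 had a feature assigned to a single gene on the Affymetrix Mouse Gene 1.0 ST array, out of 19938 genes measured that way. They were set into 10 groups by role, and each is given array by array in log2 intensity. One listed name, Sgol1, stands under its current RefSeq symbol Sgo1.

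The study followed myeloid-derived suppressor cells, immature myeloid cells that restrain T cells, while a tumour grew, and asked what changed in them between an early and a late stage. Spleens of female BALB/c mice were pooled, and their CD11b+ cells were enriched on magnetic columns and sorted into monocytic cells (Mo, Ly-6C high and Ly-6G low) and polymorphonuclear cells (PMN, Ly-6C low and Ly-6G high). The mice were naive, with no tumour cells given, or had received 100000 Her-2/CT26 cells, a mouse colon carcinoma line carrying Her-2, under the skin 3 or 6 weeks before. Mo cells gave 3 arrays at each stage, and PMN cells gave 4 naive arrays, 2 at 3 weeks and 2 at 6 weeks. The labels name no transgene and no age. Whether the numbered arrays of 1 group stand for separate pools is not in the labels, so the p-values cover only the spread between arrays, which may be technical. The arrays went with their labels in 2 receptor genes that were not part of the gates. The monocyte chemokine receptor Ccr2 had group means of 12.16 to 12.35 in Mo and 6.18 to 6.53 in PMN cells, and the neutrophil receptor Cxcr2 of 5.59 to 6.33 in Mo and 12.50 to 12.61 in PMN cells. Ly6g averaged 6.07 ± 0.11 (SD, n = 3) in naive Mo cells and 7.31 ± 1.42 (SD, n = 3) in Mo cells at 6 weeks, where 1 array reached 8.95.

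A cell that divides first copies its DNA and then passes through mitosis, when cyclin-bound CDK1 and the Aurora and Polo-like kinases drive the chromosomes to condense and a spindle of microtubules to form. Kinetochores tie each chromosome to the spindle, the spindle checkpoint holds anaphase back until all are tied, and the anaphase-promoting complex then releases the sister chromatids before cytokinesis parts the daughter cells. The genes for these proteins are transcribed mostly in late S, G2 and M phase and are low in resting cells, so that they are widely read as marks of cycling cells. In the myeloid lineage they are high in marrow progenitors up to the promyelocyte and myelocyte and low in mature neutrophils and blood monocytes. In sorted bulk samples such as these, fewer cells of a type and less RNA per cell cannot be told apart.

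Many genes of late cell cycle carry 2 short elements upstream of their start, the cell cycle genes homology region, whose usual letters TTTGAA or TTCGAA are bound by MuvB complexes, and CCAAT boxes, which are bound by NF-Y. Upstream sequence of 6 members is printed here because the members moved together. They were picked after their values were seen, 5 with the letters and a large change and 1 without them and with a small one, so that this choice says nothing of how the letters go with the change. Each line gives the 250 bases before the start used in the RefSeq promoter table on GRCm38.p6, 5′ to 3′ on the gene's own strand; for Mki67, Top2a and Ncapg that start lies inside the gene's RefSeq span, so that part of the window does too. Capitals mark the letters TTTGAA and also TTCGAA and CCAAT on either strand, so that TTCAAA and ATTGG are the reverse complements, and TTCGAA is its own; none of the printed matches overlap. The first 5 rose by 2.93 or more on the log2 scale in Mo cells at 6 weeks, and Ndc80 by 0.94.
Kif11: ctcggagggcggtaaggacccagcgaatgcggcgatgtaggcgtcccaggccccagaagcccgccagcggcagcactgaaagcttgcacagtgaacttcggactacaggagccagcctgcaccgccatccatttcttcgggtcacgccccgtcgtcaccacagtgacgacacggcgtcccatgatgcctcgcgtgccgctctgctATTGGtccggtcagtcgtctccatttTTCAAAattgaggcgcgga
Mki67: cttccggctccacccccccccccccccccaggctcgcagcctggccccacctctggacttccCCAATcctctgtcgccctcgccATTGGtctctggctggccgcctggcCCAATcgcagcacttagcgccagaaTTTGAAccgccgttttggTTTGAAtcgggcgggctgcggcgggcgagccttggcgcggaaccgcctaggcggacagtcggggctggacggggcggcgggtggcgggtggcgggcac
Top2a: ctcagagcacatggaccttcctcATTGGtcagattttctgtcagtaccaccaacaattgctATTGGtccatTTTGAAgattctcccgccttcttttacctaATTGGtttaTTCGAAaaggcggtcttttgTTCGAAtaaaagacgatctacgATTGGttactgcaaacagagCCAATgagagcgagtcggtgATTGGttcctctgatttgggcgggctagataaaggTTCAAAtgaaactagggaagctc
Kif15: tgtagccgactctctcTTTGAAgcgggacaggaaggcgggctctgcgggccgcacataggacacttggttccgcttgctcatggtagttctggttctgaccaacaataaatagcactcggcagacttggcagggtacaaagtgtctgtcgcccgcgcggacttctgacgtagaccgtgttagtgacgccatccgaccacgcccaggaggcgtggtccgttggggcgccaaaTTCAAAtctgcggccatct
Ncapg: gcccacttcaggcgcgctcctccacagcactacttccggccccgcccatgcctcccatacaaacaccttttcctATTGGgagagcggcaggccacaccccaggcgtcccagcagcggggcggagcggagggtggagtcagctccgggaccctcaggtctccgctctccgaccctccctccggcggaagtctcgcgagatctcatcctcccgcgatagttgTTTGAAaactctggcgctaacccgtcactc
Ndc80: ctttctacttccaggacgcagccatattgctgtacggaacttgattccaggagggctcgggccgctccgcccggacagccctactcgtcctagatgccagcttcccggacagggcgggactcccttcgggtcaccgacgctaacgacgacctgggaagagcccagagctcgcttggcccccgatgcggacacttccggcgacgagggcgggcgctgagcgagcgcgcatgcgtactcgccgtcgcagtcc
Kif11 lies at chr19:37376132-37376381 (plus strand), Mki67 at chr7:135716380-135716629 (minus), Top2a at chr11:99024190-99024439 (minus), Kif15 at chr9:122950831-122951080 (plus), Ncapg at chr5:45669675-45669924 (plus) and Ndc80 at chr17:71526858-71527107 (minus). Kif11 holds TTCAAA 19 to 14 bases before the start and ATTGG 45 to 41 bases before it. The Kif15 window also has TTCAAA 19 to 14 bases before the start, with no CCAAT on either strand, and that of Ndc80 holds none of these letters.

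A window was given for 43 of the 52 members. TTTGAA or TTCGAA stood in 16 of the 43 (37.2%), against 17.4% of all 27025 promoters of the same length and 16.4% of the 17492 of protein-coding genes. CCAAT on either strand stood in 29 (67.4%), against 34.5% and 36.3%, and both kinds stood together in 14 (32.6%), against 6.21% and 6.11%. These shares are not particular to the members. In 76 further cell division genes with a window, from a list described below, TTTGAA or TTCGAA stood in 38.2%, CCAAT in 57.9% and both in 23.7%. In 29 DNA replication genes the shares were 20.7%, 58.6% and 17.2%. The 16 members with TTTGAA or TTCGAA had a median change of 2.71 in Mo cells at 6 weeks and the 27 without them 2.27. For CCAAT the medians were 2.42 with it (29 members) and 2.38 without (14 members). Ube2c, with the smallest change of all members in Mo cells, was among those that hold both, while Nuf2 and Anln, which rose by 3.41 and 3.16, hold none of the letters. A match is a description of letters, not a site or a cause, and no match says only that these letters are not in the window.

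Across arrays the members sat low in naive cells and high at 6 weeks. The median log2 intensity of the 52 members was 6.55, 6.56 and 7.12 on the naive Mo arrays, 6.75, 7.0 and 7.03 at 3 weeks, and 8.56, 9.23 and 9.53 at 6 weeks. On the PMN arrays it was 6.34, 6.38, 6.43 and 6.37 in naive mice, 6.37 and 6.43 at 3 weeks, and 8.39 and 8.08 at 6 weeks. In both subsets every 6-week array stood above every other array, and the naive and 3-week arrays overlapped.

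As a guide to the array's background, each member was set against the 95th percentile, on the same array, of 1194 olfactory and vomeronasal receptor genes, which myeloid cells are not known to use. Of the 52 members, 21 were at or under it on every naive Mo array, 13 on every Mo array at 3 weeks and 0 on every Mo array at 6 weeks. In PMN cells the counts were 40, 38 and 0. The guide itself moved, from 6.95 to 7.29 on naive Mo arrays to 6.35 to 6.82 at 6 weeks, and from 7.06 to 7.34 on naive PMN arrays to 6.55 and 6.59. For members under it the naive level is known only as a bound.

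**Figure D1:**
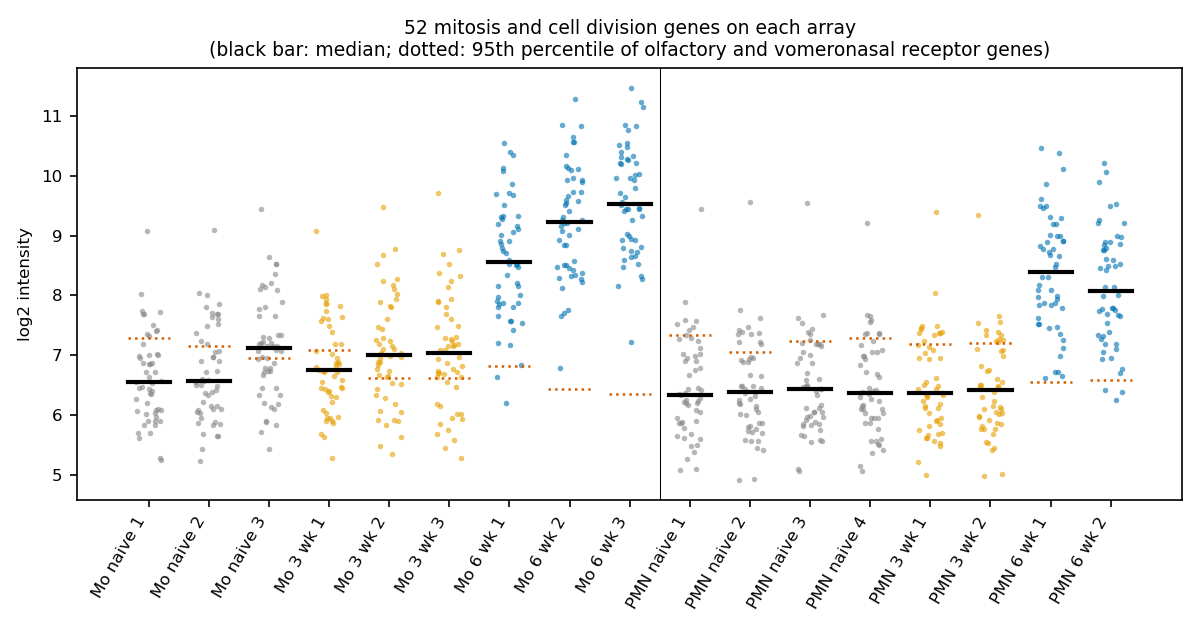
Log2 intensity of each of the 52 genes (points) on each of the 17 arrays, with the median (black bar) and the 95th percentile of the olfactory and vomeronasal receptor genes of that array (dotted). The medians of 6-week arrays run from 8.08 to 9.53 and those of all other arrays from 6.34 to 7.12.

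Some arrays stood apart within their group. Naive Mo replicate 3 was the highest of its 3 arrays for 48 of the 52 members, with Mki67 at 6.87, 7.80 and 8.65 on the 3 arrays as the widest case, a range of 1.78. At 3 weeks Mo replicate 1 was the lowest of its group for 37 members. At 6 weeks Mo replicate 3 was the highest for 52 members and replicate 1 the lowest for 51. The median SD of the members was 0.509 among 6-week Mo arrays against 0.142 for all genes, 0.257 against 0.115 among naive Mo arrays, and 0.096 against 0.107 among naive PMN arrays. PMN replicate 1 was above replicate 2 at 6 weeks for 50 members. Among naive PMN arrays no array stood apart: the 4 were the highest for 13, 9, 17 and 13 members, and the 2 arrays at 3 weeks for 27 and 25.

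At 6 weeks all 52 members passed the test as higher in Mo cells than in the naive mice, and 51 of 52 passed as higher in PMN cells. The median change in Mo cells was 2.41 on the log2 scale, a 5.30-fold rise, with a range from 0.78 in Ube2c to 3.65 in Kif11; 50 members rose at least 2-fold. In PMN cells the median was 1.84, a 3.57-fold rise, with a range from 0.34 to 3.23, and 43 members rose at least 2-fold. The threshold was 0.05 for the p of limma after Benjamini-Hochberg adjustment over all 19938 genes. Among all genes 21.8% passed as higher and 24.4% as lower in Mo cells, 25.5% and 40.0% in PMN cells, and 3.22% in Mo and 9.27% in PMN cells passed with a rise of at least 2-fold; the median change of all genes was -0.09 and -0.18. Every 6-week array was above every naive array for 52 of 52 members in each subset, against 23.7% of all genes in Mo and 28.8% in PMN cells.

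Leaving out naive Mo replicate 3 left 52 members past the test with a median change of 2.53. Leaving out 6-week Mo replicate 1 gave 52 and 2.71, and leaving out replicate 3 gave 52 and 2.14. With 1 PMN array at 6 weeks the count was 46 (median 1.75) without replicate 1 and 49 (1.98) without replicate 2. Raising all values to a floor at the 95th percentile of the receptor genes over all arrays, 6.97, left 50 members in Mo cells (median 1.89) and 35 in PMN cells (median 1.13). This floor lies above the guide of every 6-week array, 6.35 to 6.82 in Mo and 6.55 and 6.59 in PMN cells. It therefore also removes 6-week signal that is above the background of its own array. On both 6-week PMN arrays 49 of the 52 members were above the guide, so a loss with the floor does not place a member at background there. The 2 lost in Mo cells were Ndc80 and Sgo1. The 16 lost in PMN cells were Cdc25c, Melk, Ttk, Ndc80, Spc25, Cenpf, Birc5, Kif20b, Kif23, Kif4, Nusap1, Aspm, Hmmr, Sgo1, Pttg1 and Ube2c. The rises given for them in PMN cells did not pass the test with the floor. For Kif23, Pttg1 and Ube2c every PMN value was above the floor. Their changes stayed at 0.56, 0.48 and 0.34, and only the adjusted p moved.

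**Figure D2:**
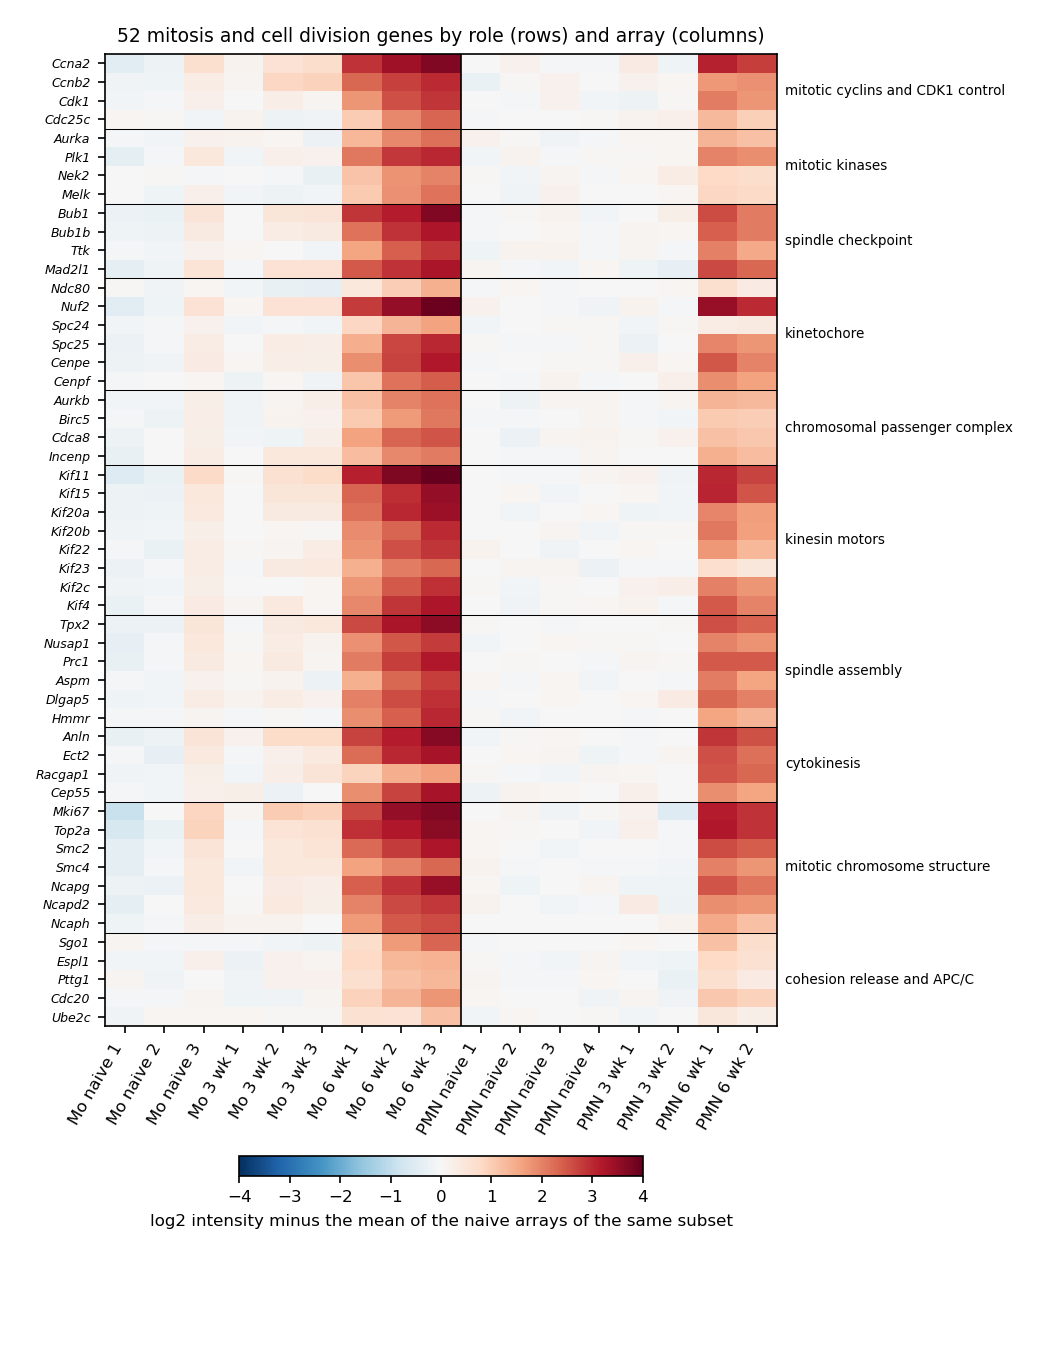
Log2 intensity of the 52 genes minus the mean of the naive arrays of the same subset, by role (rows) and array (columns), on a colour scale from -4 to 4. The 5 columns of 6-week arrays are red for all roles, palest in the group of cohesion release and APC/C, and naive Mo replicate 3 is pink for most rows.

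The 4 genes of mitotic cyclins and CDK1 control rose in both subsets, with medians of 2.54 in Mo and 1.84 in PMN cells. Ccna2, cyclin A2, which partners CDK2 in S phase and CDK1 at mitotic entry, read 7.0, 7.24 and 8.10 on the naive arrays, 7.57, 8.03 and 8.14 at 3 weeks and 10.35, 10.83 and 11.15 at 6 weeks. In PMN cells Ccna2 read 6.75, 6.94, 6.70 and 6.68 on the naive arrays, 7.09 and 6.60 at 3 weeks and 9.86 and 9.53 at 6 weeks. The naive and 3-week Mo values of Ccna2 overlap, and the 6-week values lie more than 2 units above both. Its change was 3.33 (SE 0.24, adjusted p = 1.22e-07) in Mo and 2.93 (SE 0.26, adjusted p = 1.79e-07) in PMN cells. Cdc25c, the phosphatase that removes the inhibitory phosphates from CDK1, had the smallest change of the 4 in Mo cells and read 5.91, 5.86 and 5.71 on the naive arrays, 5.97, 5.63 and 5.69 at 3 weeks and 6.84, 7.75 and 8.16 at 6 weeks, and 5.79, 5.81, 5.85 and 5.87 on the naive arrays, 5.96 and 6.02 at 3 weeks and 7.12 and 6.77 at 6 weeks in PMN cells. Its naive and 3-week values stayed between 5.63 and 6.02 in both subsets, below the background guide, so that the rise of 1.76 (SE 0.22, adjusted p = 2.04e-05) in Mo and 1.11 (SE 0.23, adjusted p = 0.000667) in PMN cells starts from a bound; with the floor the PMN change was 0.08 (adjusted p = 1). Cdk1 itself, the kinase at the centre of mitotic entry, rose by 2.41 and 1.91, and Ccnb2, a B-type cyclin that binds it, by 2.66 and 1.77.

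Among the 4 mitotic kinases Plk1 changed most in Mo cells and Nek2 least, and the medians were 1.75 in Mo and 1.03 in PMN cells. Plk1, the Polo-like kinase of centrosome maturation and spindle formation, read 7.36, 7.69 and 8.17 on the naive arrays, 7.64, 7.94 and 7.90 at 3 weeks and 9.86, 10.56 and 10.76 at 6 weeks, and 7.24, 7.47, 7.26 and 7.38 on the naive arrays, 7.38 and 7.43 at 3 weeks and 9.32 and 9.21 at 6 weeks in PMN cells. Its rise was 2.65 (SE 0.20, adjusted p = 1.39e-07) in Mo and 1.93 (SE 0.21, adjusted p = 1.5e-06) in PMN cells. Nek2, which parts the centrosomes at mitotic entry, read 7.02, 7.08 and 6.98 on the naive arrays, 7.03, 6.99 and 6.73 at 3 weeks and 8.15, 8.84 and 9.02 at 6 weeks, and 7.12, 6.95, 7.19 and 6.99 on the naive arrays, 7.13 and 7.34 at 3 weeks and 7.87 and 7.77 at 6 weeks in PMN cells. The 6-week values of Nek2 lie above all others of the subset, by less than 1 unit in PMN cells. Nek2 rose by 1.65 (SE 0.16, adjusted p = 1.94e-06) in Mo and 0.75 (SE 0.17, adjusted p = 0.00137) in PMN cells. Aurka, the Aurora kinase of the spindle poles, rose by 1.82 and 1.26, and Melk, a kinase raised in dividing cells, by 1.69 and 0.80, the latter 0.25 (adjusted p = 0.645) with the floor.

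The 4 genes of the spindle checkpoint had medians of 2.82 in Mo and 2.28 in PMN cells, the highest of the 10 groups in Mo cells as deposited. With the floor the Mo median was 2.34, and that of the mitotic chromosome structure genes, 2.44, was higher. Bub1, a kinase that brings checkpoint proteins to kinetochores, read 5.71, 5.68 and 6.45 on the naive arrays, 5.95, 6.44 and 6.47 at 3 weeks and 8.79, 9.08 and 9.64 at 6 weeks, and 5.60, 5.74, 5.83 and 5.57 on the naive arrays, 5.67 and 5.92 at 3 weeks and 8.30 and 7.75 at 6 weeks in PMN cells. It was below the background guide on all naive arrays of both subsets and rose by 3.22 (SE 0.22, adjusted p = 7.34e-08) in Mo and 2.34 (SE 0.24, adjusted p = 6.94e-07) in PMN cells. With the floor the changes of Bub1 were 2.20 in Mo and 1.06 in PMN cells. Ttk, the Mps1 kinase that starts the checkpoint signal, read 5.91, 5.83 and 6.11 on the naive arrays, 6.04, 5.92 and 5.85 at 3 weeks and 7.54, 8.33 and 8.80 at 6 weeks, and 5.27, 5.58, 5.58 and 5.36 on the naive arrays, 5.57 and 5.41 at 3 weeks and 7.45 and 6.95 at 6 weeks in PMN cells. No naive or 3-week array of either subset had Ttk above 6.11. Its change was 2.27 (SE 0.22, adjusted p = 1.56e-06) in Mo and 1.75 (SE 0.23, adjusted p = 1.07e-05) in PMN cells, and 0.24 (adjusted p = 0.855) in PMN cells with the floor. Mad2l1, the inhibitor of Cdc20 made at untied kinetochores, rose by 2.87 and 2.46, and Bub1b, its partner in that inhibitor, by 2.77 and 2.23.

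The 6 kinetochore genes spread most widely: all 6 rose in Mo cells (median 2.14) and 5 in PMN cells (median 1.80), and their changes in Mo cells ran from 0.94 to 3.41. With the floor 5 passed in Mo cells and 2, Nuf2 and Cenpe, in PMN cells. Nuf2, Ndc80, Spc24 and Spc25 encode the 4 subunits of one complex, which grips the microtubule. Nuf2 read 5.98, 6.23 and 6.96 on the naive arrays, 6.45, 6.97 and 6.97 at 3 weeks and 9.19, 9.90 and 10.31 at 6 weeks, and 6.16, 6.03, 5.97 and 5.87 on the naive arrays, 6.15 and 5.96 at 3 weeks and 9.49 and 8.99 at 6 weeks in PMN cells. It rose by 3.23 (SE 0.27, adjusted p = 1.16e-07) in PMN cells, the largest change of all members there as deposited, and by 3.41 (SE 0.26, adjusted p = 1.39e-07) in Mo cells. All 4 naive PMN values of Nuf2 were under the background guide; with the floor its PMN change was 2.28, behind Top2a (3.04), Mki67 (3.01), Ccna2 (2.73) and Racgap1 (2.37). Ndc80 read 5.84, 5.66 and 5.88 on the naive arrays, 5.68, 5.48 and 5.46 at 3 weeks and 6.21, 6.78 and 7.22 at 6 weeks, and 6.05, 6.16, 6.06 and 6.10 on the naive arrays, 6.12 and 6.16 at 3 weeks and 6.72 and 6.42 at 6 weeks in PMN cells. At 6 weeks it was still below the background guide on 1 of the 3 Mo arrays and 1 of the 2 PMN arrays, and the change was 0.94 (SE 0.17, adjusted p = 0.000668) in Mo and 0.48 (SE 0.18, adjusted p = 0.0295) in PMN cells. The Mo change of Ndc80 was 0.08 (adjusted p = 0.306) with the floor. In PMN cells its adjusted p was 0.0537 with naive replicate 1 left out, 0.0525 with naive replicate 3 left out and 0.248 with 6-week replicate 1 left out, and 0.079 with the replicate number as a block, and its change was 0 with the floor.

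Spc24 was the 1 member that did not pass in PMN cells: it read 6.22, 6.37, 6.40 and 6.38 on the naive arrays, 6.24 and 6.38 at 3 weeks and 6.66 and 6.71 at 6 weeks, a difference of 0.34 (SE 0.15, adjusted p = 0.0579). In Mo cells the same feature read 6.86, 6.91 and 7.16 on the naive arrays, 6.88, 6.89 and 6.88 at 3 weeks and 7.81, 8.34 and 8.60 at 6 weeks and rose by 1.28 (SE 0.14, adjusted p = 8e-06). Both 6-week PMN values were above all 6 other PMN values. Spc25, the fourth subunit, rose by 2.38 and 1.86, Cenpe, the kinetochore motor, by 2.59 and 2.23, and Cenpf, a large outer kinetochore protein, by 1.90 and 1.74. With the floor the PMN changes were 0.80 (adjusted p = 0.0708) for Spc25, 0.27 (0.809) for Cenpf and 0 for Spc24.

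The 4 genes of the chromosomal passenger complex, which corrects faulty attachments and later marks the cleavage plane, had changes of 1.61 to 2.15 in Mo and 1.03 to 1.33 in PMN cells. Cdca8, its subunit borealin, read 6.72, 6.90 and 7.16 on the naive arrays, 6.80, 6.77 and 7.15 at 3 weeks and 8.53, 9.25 and 9.44 at 6 weeks, and 6.91, 6.66, 7.0 and 7.05 on the naive arrays, 6.94 and 7.08 at 3 weeks and 8.08 and 8.0 at 6 weeks in PMN cells. It rose by 2.15 (SE 0.19, adjusted p = 5.25e-07) in Mo and 1.14 (SE 0.20, adjusted p = 0.000161) in PMN cells. Birc5, survivin, read 6.47, 6.33 and 6.79 on the naive arrays, 6.40, 6.68 and 6.71 at 3 weeks and 7.57, 8.22 and 8.64 at 6 weeks, and 5.86, 5.88, 5.96 and 6.03 on the naive arrays, 5.86 and 5.81 at 3 weeks and 6.99 and 6.93 at 6 weeks in PMN cells. The Birc5 values in naive and 3-week PMN cells were all at or below 6.03, and the change was 1.61 (SE 0.19, adjusted p = 1.21e-05) in Mo and 1.03 (SE 0.20, adjusted p = 0.000417) in PMN cells; with the floor the PMN change was 0.01 (adjusted p = 1). Aurkb, the kinase of the complex, rose by 1.78 and 1.33, and Incenp, its scaffold, by 1.74 and 1.32.

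Among the 8 kinesin motors all rose in both subsets, with medians of 2.54 in Mo and 1.89 in PMN cells; with the floor all 8 passed in Mo cells (median 2.06) and 5 in PMN cells (median 0.68). Kif11, the motor that pushes the spindle poles apart (chr19:37376382-37421863), read 5.90, 6.15 and 7.20 on the naive arrays, 6.46, 7.03 and 7.16 at 3 weeks and 9.51, 10.15 and 10.52 at 6 weeks. In PMN cells Kif11 read 6.20, 6.10, 6.11 and 6.30 on the naive arrays, 6.35 and 6.05 at 3 weeks and 9.19 and 8.90 at 6 weeks. Naive Mo replicate 3 lay more than 1 unit above the other naive Mo arrays and above all 3 arrays at 3 weeks. The rise was 3.65 (SE 0.28, adjusted p = 1.68e-07) in Mo, the largest of all members there as deposited, and 2.86 (SE 0.30, adjusted p = 8.6e-07) in PMN cells. Naive Mo replicates 1 and 2 were under the background guide; with the floor the Mo change was 3.02, an 8.10-fold rise, behind Ccna2 (3.33), Mki67 (3.24) and Top2a (3.24).

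Kif23, the motor subunit of centralspindlin (chr9:61917277-61946810), read 7.69, 7.86 and 8.20 on the naive arrays, 7.82, 8.27 and 8.32 at 3 weeks and 9.33, 9.97 and 10.21 at 6 weeks, and rose by 1.92 (SE 0.19, adjusted p = 2.39e-06) in Mo cells. In PMN cells it read 9.45, 9.56, 9.54 and 9.21 on the naive arrays, 9.40 and 9.35 at 3 weeks and 10.11 and 9.90 at 6 weeks, well above the background guide at every stage, and differed by 0.56 (SE 0.20, adjusted p = 0.0225). That PMN change turned to -0.23 (adjusted p = 0.227) when all 17 arrays were quantile normalized together, and it missed the threshold with the floor (0.105) and without naive replicate 4 (0.0578) or 6-week replicate 1 (0.163) or 2 (0.0501), all adjusted p. Kif15, a motor that helps Kif11, changed by 2.77 in PMN and 2.93 in Mo cells as deposited, and Kif20a, a motor of the central spindle, by 1.82 and 2.89. The naive PMN values of both were under the background guide. With the floor the changes were 2.06 in PMN and 2.66 in Mo cells for Kif15, and 0.73 and 2.21 for Kif20a.

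All 6 spindle assembly genes rose at least 2-fold in both subsets, with medians of 2.47 in Mo and 2.03 in PMN cells, on the values as deposited. With the floor all 6 passed in Mo cells (median 1.78) and 3 in PMN cells (median 1.02). Tpx2, which activates Aurora A on spindle microtubules, read 6.44, 6.42 and 7.15 on the naive arrays, 6.59, 7.04 and 7.09 at 3 weeks and 9.31, 9.93 and 10.26 at 6 weeks, and 6.46, 6.45, 6.34 and 6.45 on the naive arrays, 6.44 and 6.48 at 3 weeks and 9.0 and 8.78 at 6 weeks in PMN cells. Its 6 naive and 3-week PMN values lie close together, and both 6-week values more than 2 units above them. Tpx2 rose by 3.16 (SE 0.21, adjusted p = 5.69e-08) in Mo cells, the lowest p of all members there, and by 2.46 (SE 0.22, adjusted p = 2.29e-07) in PMN cells. Aspm, a protein of the spindle poles, read 6.08, 6.06 and 6.34 on the naive arrays, 6.22, 6.29 and 5.94 at 3 weeks and 7.58, 8.46 and 8.92 at 6 weeks, and 5.66, 5.56, 5.67 and 5.50 on the naive arrays, 5.62 and 5.54 at 3 weeks and 7.63 and 7.18 at 6 weeks in PMN cells. It rose by 2.16 (SE 0.23, adjusted p = 4.02e-06) in Mo and 1.81 (SE 0.24, adjusted p = 1.17e-05) in PMN cells, the latter being 0.44 (adjusted p = 0.338) with the floor. Prc1, which bundles the microtubules of the central spindle, rose by 2.68 and 2.45, and Hmmr, a spindle protein also known as a hyaluronan receptor, by 2.42 and 1.46. With the floor the PMN change was 0 for Hmmr and 0.41 (adjusted p = 0.138) for Nusap1.

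The 4 cytokinesis genes rose in both subsets, with medians of 2.73 in Mo and 2.40 in PMN cells, and one of them, Racgap1, was the only member with a larger change in PMN than in Mo cells on the values as deposited. With the floor all 4 passed in both subsets, with medians of 2.24 in Mo and 1.77 in PMN cells. Anln, anillin, the scaffold of the contractile ring, read 6.27, 6.38 and 7.07 on the naive arrays, 6.76, 7.29 and 7.29 at 3 weeks and 9.27, 9.72 and 10.20 at 6 weeks, and 5.87, 6.01, 6.06 and 5.96 on the naive arrays, 5.92 and 5.99 at 3 weeks and 8.83 and 8.53 at 6 weeks in PMN cells. It rose by 3.16 (SE 0.22, adjusted p = 6.79e-08) in Mo and 2.71 (SE 0.23, adjusted p = 1.31e-07) in PMN cells. All naive PMN values of Anln were under the background guide, and with the floor its changes were 2.73 in Mo and 1.71 in PMN cells. Racgap1, the GTPase-activating subunit of centralspindlin (chr15:99620496-99651656), read 9.07, 9.10 and 9.44 on the naive arrays, 9.08, 9.48 and 9.72 at 3 weeks and 10.09, 10.64 and 10.85 at 6 weeks. In PMN cells Racgap1 read 7.02, 6.92, 6.86 and 7.09 on the naive arrays, 7.04 and 6.99 at 3 weeks and 9.50 and 9.27 at 6 weeks. It was thus clear of the background guide on every Mo array, naive mice included, and below it on every naive and 3-week PMN array. The change of Racgap1 was 1.32 (SE 0.18, adjusted p = 4.16e-05) in Mo and 2.41 (SE 0.19, adjusted p = 5.04e-08) in PMN cells, and with the floor it was 2.37, a 5.17-fold rise, in PMN cells. Ect2, the exchange factor that switches on RhoA at the cleavage furrow, rose by 2.85 and 2.40, and Cep55, which acts at the midbody, by 2.61 and 1.72. With the floor the PMN changes were 1.83 for Ect2 and 0.86 (adjusted p = 0.0302) for Cep55.

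The 7 genes of mitotic chromosome structure, with topoisomerase, condensin subunits and Ki-67, rose by medians of 2.76 in Mo and 2.33 in PMN cells. Mki67, the Ki-67 protein that coats mitotic chromosomes and serves as a stain for cycling cells, read 6.87, 7.80 and 8.65 on the naive arrays, 7.87, 8.77 and 8.70 at 3 weeks and 10.40, 11.28 and 11.47 at 6 weeks. In PMN cells Mki67 read 7.34, 7.42, 7.20 and 7.36 on the naive arrays, 7.49 and 6.82 at 3 weeks and 10.47 and 10.21 at 6 weeks. Its naive Mo values span nearly 2 units and enclose 1 of the 3 values at 3 weeks, while the 6-week values lie above all of them. The change was 3.28 (SE 0.35, adjusted p = 5.35e-06) in Mo and 3.01 (SE 0.37, adjusted p = 5.97e-06) in PMN cells, among the largest standard errors of the members. Smc4, an ATPase of the condensins, read 7.75, 8.01 and 8.53 on the naive arrays, 8.0, 8.53 and 8.53 at 3 weeks and 9.72, 10.09 and 10.39 at 6 weeks, and 7.59, 7.37, 7.45 and 7.35 on the naive arrays, 7.37 and 7.34 at 3 weeks and 9.45 and 9.22 at 6 weeks in PMN cells. It rose by 1.97 (SE 0.19, adjusted p = 1.64e-06) in Mo and 1.89 (SE 0.20, adjusted p = 1.11e-06) in PMN cells. Top2a, which untangles sister chromatids, rose by 3.24 and 3.04, and the condensin subunits Ncapg by 2.93 and 2.33 and Ncaph by 2.26 and 1.34.

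The 5 genes of cohesion release and the anaphase-promoting complex, APC/C, had the smallest medians of the 10 groups, 1.17 in Mo and 0.70 in PMN cells. Sgo1, shugoshin, which guards cohesin at centromeres, read 6.04, 5.88 and 5.90 on the naive arrays, 5.90, 5.84 and 5.75 at 3 weeks and 6.64, 7.65 and 8.27 at 6 weeks, and 5.48, 5.56, 5.56 and 5.56 on the naive arrays, 5.62 and 5.55 at 3 weeks and 6.72 and 6.25 at 6 weeks in PMN cells. Its change was 1.58 (SE 0.25, adjusted p = 0.00024) in Mo and 0.95 (SE 0.27, adjusted p = 0.0062) in PMN cells, and with the floor it was 0.66 (adjusted p = 0.0536) in Mo and 0 in PMN cells. Without 6-week PMN replicate 1 the PMN change of Sgo1 was 0.71 (adjusted p = 0.0997). Ube2c, the ubiquitin-conjugating enzyme of the APC/C (chr2:164769929-164772902), read 7.41, 7.63 and 7.65 on the naive arrays, 7.63, 7.60 and 7.61 at 3 weeks and 8.16, 8.13 and 8.73 at 6 weeks, and 7.42, 7.62, 7.54 and 7.60 on the naive arrays, 7.43 and 7.55 at 3 weeks and 8.0 and 7.76 at 6 weeks in PMN cells. The rise of Ube2c, the smallest of the 5, was 0.78 (SE 0.13, adjusted p = 0.000387) in Mo and 0.34 (SE 0.14, adjusted p = 0.0432) in PMN cells; the PMN call was lost without PMN naive replicate 1 (adjusted p = 0.095), 3 (0.0693) or 4 (0.0542), PMN 6-week replicate 1 (0.312) or 2 (0.0506), Mo naive replicate 2 (0.0512) or Mo 3-week replicate 2 (0.0519). It was also lost with the floor (0.132), with the replicate number as a block (0.0603), and when all 17 arrays were quantile normalized together, where the change was 0.03 (0.853). Pttg1, securin, which holds separase in check, rose by 1.05 and 0.48, Espl1, separase, by 1.17 and 0.70, and Cdc20, the activator of the APC/C at anaphase, by 1.35 and 1.0.

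**Figure D3:**
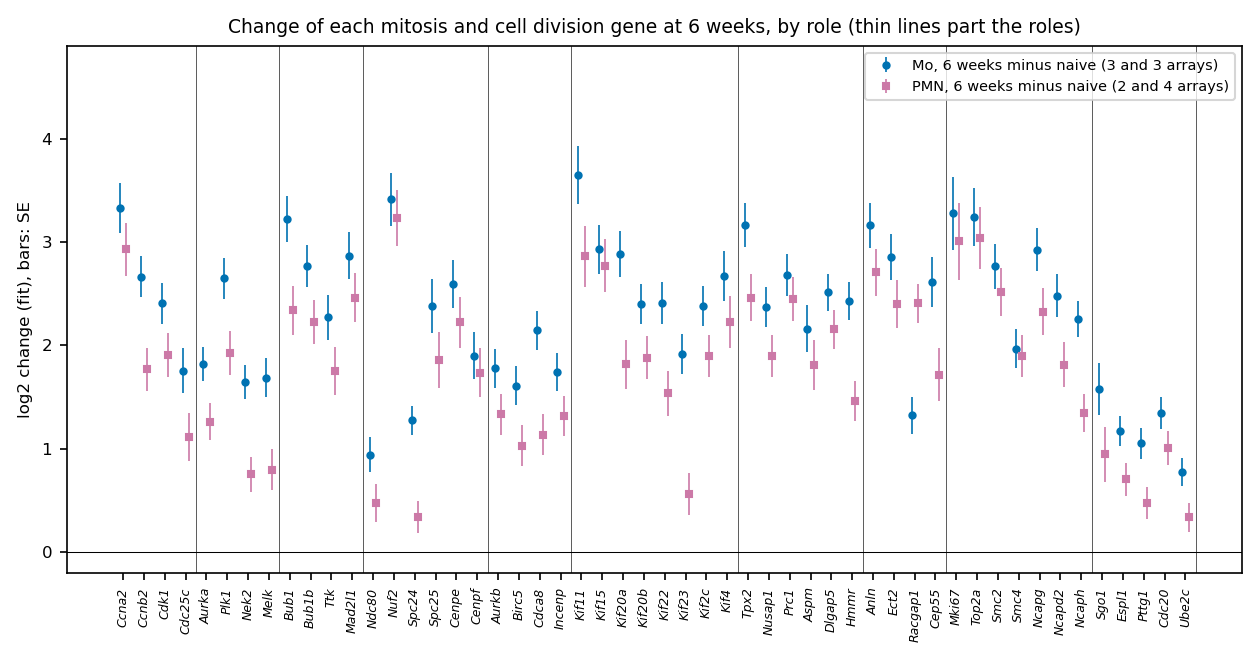
Log2 change from naive to 6 weeks of each of the 52 genes in Mo (circles) and PMN cells (squares), with the standard error of the fit as bars, in order of role. Changes in Mo cells run from 0.78 (Ube2c) to 3.65 (Kif11), and Racgap1 is the gene whose square lies above its circle.

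At 3 weeks no member passed the test in either subset. In Mo cells the median change was 0.17, with a range from -0.25 in Ndc80 to 0.68 in Mki67, while 5.20% of all genes passed as higher and 0.833% as lower. The lowest adjusted p in limma was 0.066, in Ccnb2, which read 7.72, 7.68 and 8.13 on the naive arrays, 7.95, 8.67 and 8.76 at 3 weeks and 10.13, 10.57 and 10.82 at 6 weeks, and 2 members had an unadjusted p below 0.05. No member had every 3-week Mo array above every naive one, against 10.5% of all genes. That count turns on naive Mo replicate 3 and on 3-week Mo replicate 1, the lowest of its group for 37 members. Of the 52 members 34, 42 and 41 were above both naive replicates 1 and 2 on the 3 arrays at 3 weeks, and 3, 14 and 16 were above naive replicate 3.

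Without naive Mo replicate 3 the 3-week count was 6 members (median 0.34), among them Ccna2 at 0.79, Kif11 at 0.86, Anln at 0.79 and Mki67 at 1.11. It was 4 (median 0.23) without 3-week Mo replicate 1 and 1 without 6-week Mo replicate 1. The shares of all genes that passed in these fits are not given here. In PMN cells the median change at 3 weeks was 0.03, with a range from -0.25 to 0.23 and an adjusted p of 1 for every member; 0 members had an unadjusted p below 0.05, and 0% of all genes passed. Both 3-week PMN arrays were above all 4 naive ones for 4 members, against 6.17% of all genes.

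Between 3 and 6 weeks the rise was nearly as large as from the naive state, with which it shares the 6-week arrays. In Mo cells 52 members were higher at 6 than at 3 weeks, with a median of 2.27 and a range from 0.73 to 3.18, where 4.38% of all genes passed as higher and 3.13% as lower. In PMN cells 50 were higher, with a median of 1.83, where 23.7% passed as higher and 34.9% as lower. Spc24 (adjusted p = 0.0755) and Ndc80 (0.0845) were the 2 that missed the threshold in PMN cells. Every 6-week array was above every 3-week array for all 52 members in both subsets, against 6.47% of all genes in Mo and 30.0% in PMN cells.

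The change from naive to 6 weeks was larger in Mo than in PMN cells for 51 of the 52 members on the values as deposited, for 50 with each array centred on its median and for 40 with all 17 arrays quantile normalized together. The test of that difference itself passed for 10. The median difference of the changes was 0.51, and 0.07 over all genes. In 9 members the change was larger in Mo cells, where 6.47% of all genes passed in that direction, and in 1 it was smaller, where 11.0% passed. The widest differences were in the partners of centralspindlin, in opposite directions: it was 1.35 (SE 0.28, adjusted p = 0.00283) for Kif23 and -1.08 (SE 0.26, adjusted p = 0.00704) for Racgap1. Kif20a (1.07), Cdca8 (1.01), Hmmr (0.96), Spc24 (0.94), Ncaph (0.91), Ccnb2 (0.90), Nek2 (0.89) and Melk (0.89) made up the other 8, with adjusted p from 0.00477 to 0.0409. For Kif11 the difference was 0.78 (SE 0.41, adjusted p = 0.224), and for Nuf2 0.18 (SE 0.37, adjusted p = 0.809), neither past the threshold. That of Kif11 did pass with the floor (0.94, adjusted p = 0.0455) and with the replicate number as a block (0.76, 0.0297). It also passed without naive Mo replicate 3 (1.17, 0.0235) and with array weights (1.06, 0.00267), and in no other setting run. Plk1, Bub1, Tpx2 and Anln passed in some settings too.

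These counts rest on few arrays, and the shares of all genes that passed with an array left out are not given here. Without 6-week Mo replicate 1, the lowest of its group, 40 members passed, without Mo replicate 2 there were 6, and without naive Mo replicate 3 there were 15. Without 6-week PMN replicate 1 the count was 5, with Racgap1 no longer among them, and without PMN replicate 2 it was 3. Centring each array on its median gave 4. From 3 to 6 weeks the difference passed in 9 members, 8 larger in Mo cells, where 11.9% of all genes passed, and Racgap1 smaller at -1.26, where 17.3% passed; it was 29 without 6-week Mo replicate 1. At 3 weeks the difference passed in 0 members (0 at an unadjusted p below 0.05), and in 0.00502% of all genes.

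Across the 52 members the changes of the 2 subsets ran in parallel, with a Pearson r of 0.885 and a Spearman rho of 0.880 across genes, against a Pearson r of 0.686 over all 19938 genes. The 2 sets of changes come from different arrays, but each gene brings the same probes to both, and genes are not independent replicates. The correlation of the change with the naive level of the same gene was -0.195 in Mo and -0.238 in PMN cells. Both draw on the naive arrays for the level and for the change.

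**Figure D4:**
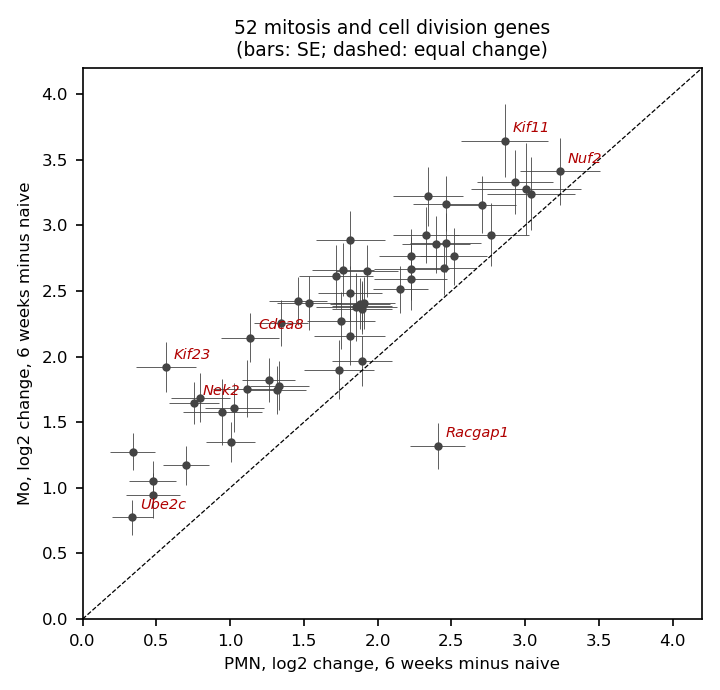
Log2 change from naive to 6 weeks in Mo cells against that in PMN cells for the 52 genes, with standard errors as bars and equal change as the dashed line. On these deposited values all genes but Racgap1 lie above the line, Kif23 the farthest; 40 of the 52 were larger in Mo cells when all 17 arrays were quantile normalized together.

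Other genes of the same pathway were taken from 4 lists, which were also chosen with earlier results of these data known. Their counts at 6 weeks stand beside shares over all genes of 21.8% higher and 24.4% lower in Mo cells. In PMN cells these shares were 25.5% and 40.0%. Of 92 further cell division genes, 85 rose in Mo cells at 6 weeks (median 1.27) and 75 rose and 1 fell in PMN cells (median 1.05). Knl1, the kinetochore scaffold of the checkpoint, rose by 2.82 in Mo and 2.48 in PMN cells, Spag5, a spindle protein, by 2.66 and 2.13, and Ncapg2, a subunit of condensin II, by 2.58 and 2.33. At 3 weeks 3 of the 92 passed as higher in Mo cells and 0 in PMN cells, where 5.20% and 0% of all genes did. No gene of the list fell in Mo cells, and 7 did not pass there.

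Of 18 regulators of mitotic gene transcription 15 rose in Mo cells (median 0.83), and 14 rose and 1 fell in PMN cells (median 0.80). Foxm1, the forkhead factor that drives G2 and M phase genes, rose by 1.84 and 1.51, and E2f8, a repressive E2F, by 2.33 and 1.91. Rbl1, the pocket protein p107, rose by 1.36 in Mo and 1.95 in PMN cells, and its difference of the changes, -0.58 (adjusted p = 0.12), did not pass.

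Of 36 DNA replication genes all 36 rose in Mo cells (median 1.35), and 18 rose and 1 fell in PMN cells (median 0.58). Rrm2, the small subunit of ribonucleotide reductase, rose by 3.11 and 2.22, Mcm6, of the replicative helicase, by 2.92 and 1.50, and Prim1, a primase subunit, by 2.80 and 1.50. The change was larger in Mo than in PMN cells, by the test of the difference, for 21 of these 36 genes (median difference 0.84). It was larger for 9 of the 52 members (median 0.51) and for 6.47% of all genes. Of 17 G1 cyclins, CDKs and inhibitors 11 rose and 1 fell in Mo cells (median 0.63), and 9 rose and 3 fell in PMN cells (median 0.41). Ccne2, cyclin E2, rose by 2.16 and 0.90, Ccne1, cyclin E1, by 1.65 and 0.63, and Cdkn2c, the CDK inhibitor p18, by 1.94 and 1.52.

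Some marker lists of other cells rose with the members at 6 weeks and others did not. For these counts, 21.8% of all genes passed as higher and 24.4% as lower in Mo cells. In PMN cells 25.5% passed as higher and 40.0% as lower. Early granulocyte markers, such as the azurophil granule enzymes of promyelocytes, rose in Mo cells for 6 of 8 genes (median 3.45). Their summed level, as log2 of the sum of intensities, was 9.73 to 10.01 on naive Mo arrays, 9.92 to 10.28 at 3 weeks, and 12.34, 13.24 and 13.71 on 6-week replicates 1, 2 and 3. Those 3 arrays stand in the same order as the members' medians. So do their monocyte marker sums (15.06, 15.07 and 15.09), while the neutrophil, blood progenitor and erythroid sums do not. What such an order of 3 arrays means was not tested. In PMN cells 6 of 8 rose as well (median 0.97), from a summed level of 9.69 to 9.84 in naive mice and 9.67 to 9.72 at 3 weeks to 10.98 and 10.71. Of the 8, Mpo, Ctsg, Ms4a3 and Gfi1 were at or under the background guide on every naive Mo array, and none on every 6-week Mo array.

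Neutrophil markers rose in Mo cells for 9 of 12 genes and fell for 1, with a summed level of 11.31 to 11.72 in naive mice, 11.89 to 12.25 at 3 weeks and 13.76, 14.84 and 13.92 at 6 weeks. In PMN cells 9 of 12 rose and 1 fell, and the sum was 15.32 to 15.41, 15.25 to 15.26, and 16.35 and 16.44. Ly6g, Cxcr2, Mmp9 and Retnlg were at or under the guide on every naive and every 3-week Mo array, and none of the 12 was on every 6-week Mo array. Of 8 blood progenitor markers 3 rose and 1 fell in Mo cells, from a sum of 9.74 to 9.83 in naive and 9.64 to 9.73 in 3-week mice to 10.17, 10.77 and 10.54, and 2 rose and 3 fell in PMN cells. Of 13 erythroid markers 2 rose in Mo cells, where the sum was 10.53 to 11.07 in naive mice, 10.66 to 11.61 at 3 weeks and 11.95, 12.52 and 10.63 at 6 weeks. At 6 weeks replicates 1 and 2 were above the naive range of this sum, and replicate 3 was within it. How the erythroid sum goes with the members was not tested. In PMN cells 1 of the 13 rose and 1 fell.

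B cell markers went the other way: 6 of 8 fell in Mo cells, and all 8 fell in PMN cells, where the sum went from 11.46 to 11.63 in naive mice to 10.03 and 9.99 at 6 weeks. T and NK cell markers fell for 7 of 9 genes in Mo cells, and 1 rose and 5 fell in PMN cells. Monocyte markers rose for 4 of 8 and fell for 2 in Mo cells and rose for 3 and fell for 2 in PMN cells, while 6 of 8 dendritic cell markers fell and 1 rose in Mo cells and 6 fell in PMN cells. Of 5 platelet markers 3 fell in Mo cells, and 1 rose and 1 fell in PMN cells; of 6 plasma cell markers 1 rose and 2 fell in Mo cells, and 1 rose and 4 fell in PMN cells. None of 8 carcinoma cell markers rose in either subset, with 2 lower in Mo and 8 in PMN cells; 6 of the 8 were at or under the background guide on every PMN array of every stage, while the guide itself fell at 6 weeks and 40.0% of all genes were lower there. The part of any of these in the rise of the mitosis genes was not tested.

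**Figure D5:**
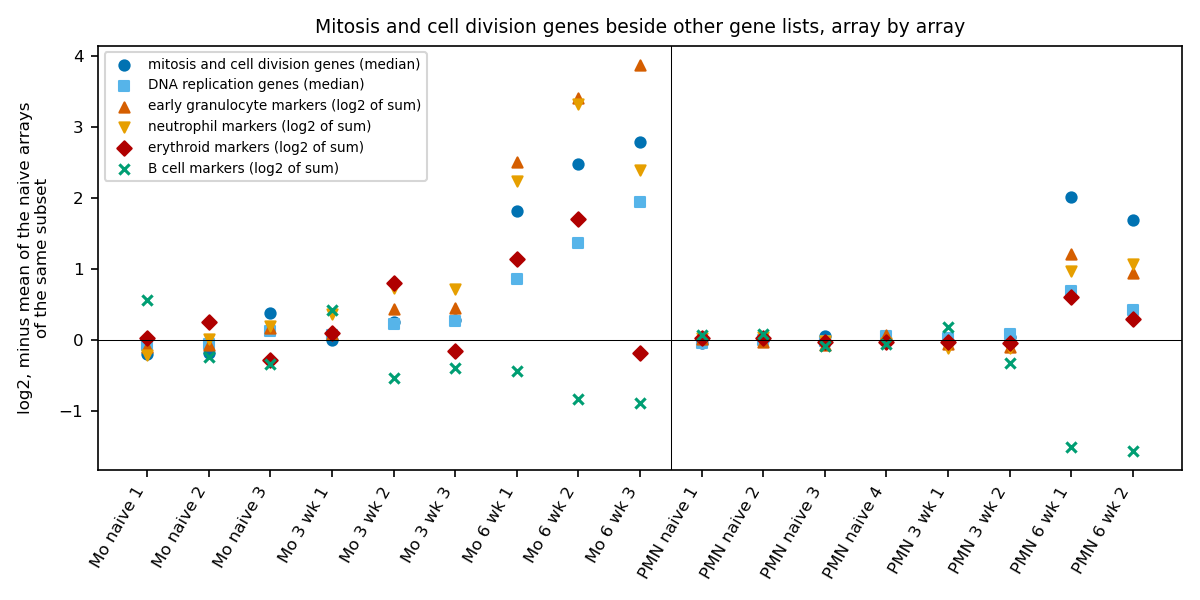
For each array, the median of the 52 mitosis and cell division genes and of the DNA replication genes, and the log2 of the summed intensity of 4 marker lists, each minus its mean over the naive arrays of the same subset. At 6 weeks early granulocyte markers lie above the mitosis genes in Mo cells and below them in PMN cells, and B cell markers lie lowest.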

How the data were processed

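Total RNA of the sorted cells was hybridised to 17 arrays, 9 of Mo and 8 of PMN cells. The deposited values are linear intensities, made by the authors with RMA (background correction, quantile normalization and probe summary), per the submitters' processing notes; its version, settings and the grouping of arrays are not given in the sources used here. Intensity ran from 9.76 to 32095 and was put on the log2 scale. The subsets were treated as normalized apart, so levels were tested within a subset, and subsets only by the difference of their changes.

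Of 35557 features, 21789 named 1 gene, 1621 several and 12147 none. Entrez numbers of 21698 matched RefSeq on GRCm38.p6, and 0 symbols changed. Of the 999 genes with several features (among the members only Top2a) the one with the highest mean stood for the gene. The number of arrays limits the precision.

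limma 3.58.1 (R 4.3.3) fitted 1 mean for each of the 6 groups to all 17 arrays, with lmFit and eBayes, no filter on dim genes and two-sided tests. The fit was tested on simulated data. The members and lists were chosen with earlier results of these data known. Named are the members with the largest and smallest change in Mo cells at 6 weeks in each role and the top 3 genes of each other list; further members were named after their values were seen. Centring, joint quantile normalization, dim genes, a floor, feature averaging, separate fits, array weights, a trended robust prior, a replicate block and leaving out each array were varied.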

Additional observations from a re-analysis of the deposited data

Results flagged for a closer look

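Of the 20 named members tested for an array far from the other 3 naive PMN arrays, 2 had one. Tpx2 was at 6.34 on naive PMN replicate 3 and Sgo1 at 5.48 on naive PMN replicate 1, each so far below the other 3 arrays that the gap passed Dixon's 95% critical value. Chance gives about 1 in 20 such groups.

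The change from naive to 6 weeks differed between Mo and PMN cells, by the test of the difference, in 10 of the 52 members. Over all genes 6.47% passed as larger in Mo cells and 11.0% as smaller. Among the named members the difference, Mo minus PMN, was 0.89 for Nek2, 1.01 for Cdca8, 1.35 for Kif23 and -1.08 for Racgap1. Of these the call of Nek2 was lost without PMN 6-week replicate 2 (adjusted p = 0.0717), that of Cdca8 without PMN 6-week replicate 1 (0.0504) or 2 (0.0732) and with centring (0.0538), and that of Racgap1 without PMN 6-week replicate 1 (0.0524). The change from 3 to 6 weeks differed in 9 members, with 1.18 for Nek2, 0.76 for Ndc80, 1.14 for Cdca8, 1.07 for Kif23 and -1.26 for Racgap1. Over all genes 11.9% passed as larger in Mo cells and 17.3% as smaller. Of the 3-to-6-week differences, that of Ndc80 no longer passed with centring (adjusted p = 0.205), joint quantile normalization (0.318) or the floor (0.08, adjusted p = 0.732), nor without any 1 of 14 of the arrays (0.0507 to 0.167). That of Kif23 no longer passed with centring (0.0929), with the floor (0.0542) or without PMN 6-week replicate 2 (0.0677), and that of Cdca8 with centring (0.0531). The subsets were sorted by different gates and their values were treated as normalized apart, so that gate and subset cannot be told apart.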

How the results depend on the processing

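No member's change at 6 weeks within either subset turned its direction under the alternatives run, apart from Kif23. With all 17 arrays quantile normalized together, Kif23 in PMN cells changed by -0.23 from naive and -0.16 from 3 weeks to 6 weeks, and 49 members rose from naive, with Kif23, Pttg1 and Ube2c no longer among them. Leaving out each array in turn gave 52 to 52 members in Mo cells from naive and from 3 weeks to 6 weeks, 46 to 52 and 43 to 52 in PMN cells, 0 to 6 in Mo and 0 to 0 in PMN cells from naive to 3 weeks, and for the differences 0 to 1 (naive to 3 weeks), 3 to 40 (naive to 6 weeks) and 5 to 29 (3 to 6 weeks). Leaving out dim genes kept 34 of the members; 34 rose in Mo cells in both comparisons at 6 weeks, and 1 at 3 weeks. With the floor 31 rose in PMN cells from 3 to 6 weeks. Array weights, whose fit gave a convergence warning, called 38 members in Mo cells at 3 weeks (36 higher, 2 lower) and 18, 42 and 22 for the 3 differences in that order. The share of all genes called is not given here for this or the other alternative settings. These counts therefore cannot be set against it. Centring each array on its median gave 4 and 3 for the differences at 6 weeks; it moved the median of all genes by 0.12 in Mo and 0.20 in PMN cells from naive to 6 weeks, and the share of higher genes among those called from 47.2% to 69.5% and from 38.9% to 64.4%, and in Mo cells at 3 weeks from 86.2% to 97.4%. The deviations of same-numbered arrays from their group means had correlations of -0.089 to 0.628 in Mo and -0.461 to 0.021 in PMN cells. In 13 of 18 Mo cases an array correlated best with its own number, a hint of pairing from the data and not from the labels. As no label ties the numbers, they were not taken as pairs. Deviations within a group sum to 0 for each gene, so values near or below 0 do not speak against pairing. In a PMN group of 2 arrays the deviations mirror each other, so the PMN range cannot decide on pairing. With the replicate number as a block, 8 members rose in Mo cells at 3 weeks, Ndc80 and Ube2c no longer passed in PMN cells from naive to 6 weeks, and the difference from 3 to 6 weeks passed in 15 members and from naive to 6 weeks in 15. The cause of these shifts was not tested. Levels at or under the array background are known only as bounds.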
